A study of Mus musculus with 12 samples.

Results

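The transcriptional response of spindloid tumourspheres to joint inhibition of Met and the FGF receptors was examined in 6 of the 12 RNA-sequencing libraries of the series, namely the 3 treated with both inhibitors (Combo) and the 3 treated with DMSO. The libraries were chosen by their labels alone, as those of the drug combination and of the vehicle at 24 h, and were paired by cell line. The lines A1005, A1129 and A1471 were each derived from a separate spindle-shaped mammary tumour of MMTV-Metmt;Trp53fl/+;Cre mice, in which the mammary-active MMTV promoter drives an activated Met transgene and 1 floxed copy of Trp53 can be deleted by Cre, so that DMSO and Combo cells alike carried these alleles. Spheres were grown in suspension and exposed for 24 h to DMSO, or to 1 µM Crizotinib, a Met kinase inhibitor, together with 1 µM PD173074, an FGF receptor kinase inhibitor. The 6 remaining libraries received either inhibitor alone and entered the fit as a source of the error estimate. Each line gave 1 library per treatment (n = 3 lines), thus no line was replicated within a treatment and each line stands for 1 tumour.

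Met, the receptor for hepatocyte growth factor, and the FGF receptors are tyrosine kinases that activate the Ras-ERK and PI3K-Akt cascades. ERK signalling induces immediate early genes, ETS family factors, cyclin D1 and a set of phosphatases and adaptors that dampen the cascade in turn, whereas Akt keeps FoxO transcription factors out of the nucleus. In basal-like breast cancer both receptors are known for their links to mesenchymal and tumour-initiating cells.

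Library totals were 13031492 to 17750476 counts over the 12 libraries, and 13836 of the 55573 genes in the table passed the filter on low counts. Expression is given below as CPM, the counts scaled by TMM to a common library size, always in the order A1005, A1129, A1471, and changes as log2 fold changes of Combo against DMSO ± their standard error. CPM is not corrected for transcript length, so levels are compared between treatments and not between genes, and in bulk RNA a smaller number of cells of a kind cannot be told apart from less RNA per cell. The spheres had mainly mesenchymal transcripts, and 15 mesenchymal markers summed to 4074 to 6992 CPM with DMSO. Vim had 37742 to 44766 counts with DMSO, whereas Cdh1 had at most 9 counts in any of the 6 libraries, and Krt5, Cldn7 and Esrp1 had 0 in all of them. Some markers went the other way, as the epithelial Krt18 had 145 to 579 counts with DMSO and 53 to 315 with Combo. Krt7 rose from 4, 24 and 13 to 39, 159 and 80 counts. In A1005 Krt8 had 187 and 611 counts and Krt19 had 563 and 110. The mesenchymal gene Cdh2 had at most 6. Other mesenchymal genes were specific to lines, as A1129 and A1471 had at most 10 counts of Col1a1 and Col1a2 and A1005 at most 8 of Prrx1. The summed level of 16 epithelial markers was 26.7 to 86.6 CPM with DMSO and 15.1 to 67.4 CPM with Combo. For 13 immune markers these ranges were 24.4 to 84.6 and 15.6 to 62.8 CPM, and Lyz2, Tyrobp and Adgre1 had 0 counts throughout. Ptprc, a leukocyte marker, had 174 counts with DMSO and 314 with Combo in A1005 and at most 2 in the other lines. Cd68 went from 227, 64 and 75 to 439, 173 and 109 counts, and Cd14 from 699, 343 and 281 to 347, 281 and 90. The 10 endothelial markers summed to 3.48 to 9.06 and 2.94 to 7.04 CPM. Among these other cell types, the sum of 7 pericyte markers alone was higher in every Combo library than in any DMSO library (39.0 to 106 CPM against 7.79 to 11.5 CPM), mainly through Pdgfrb and Mcam, while Rgs5 had at most 1 count.

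Of the inhibited receptors, Met was read at 5091, 4978 and 2613 CPM with DMSO and 5979.9, 6920.5 and 2666 CPM with Combo (change 0.25 ± 0.14, edgeR adjusted p = 0.1602), and Fgfr1 at 319, 256 and 286 and 217, 302 and 282 CPM (change -0.11 ± 0.13, edgeR adjusted p = 0.507). Neither transcript passed the paired test. The adaptor Frs2, which couples FGF receptors to Ras, went from 46.996, 33.1 and 39.1 to 62.9, 55.6 and 53.7 CPM (change 0.55 ± 0.10, edgeR adjusted p = 0.00145; unpaired 0.1297). The reference gene Actb did not pass the test (0.05, edgeR adjusted p = 0.806), nor did Gapdh (-0.44, edgeR adjusted p = 0.0741), but Hprt was lower in each line (change -0.82 ± 0.16, edgeR adjusted p = 0.00147).

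The combination changed the expression of 7578 genes at an adjusted p under 0.05 when the libraries were paired by line (edgeR's quasi-likelihood test). Of all tested genes, 28.6% were called higher (3953 genes) and 26.2% lower (3625 genes), which are the background shares against which every gene group below is read. The libraries were also tested without pairing, a design stated in the study's methods. In that fit 6.1% were called higher (844 genes) and 8.28% lower (1146 genes). All of these 1990 genes were also called, in the same direction, in the paired fit. When only the 6 compared libraries were fitted, with pairing, 2511 genes were called higher and 2358 lower. Of the tested genes, 7.83% were called with a log2 fold change of at least 1.5 (1083 genes) and 5.07% with one of at most -1.5 (701 genes). Most called changes were modest, as 4447 of them (58.7%) were under 1 on the log2 scale, whereas 593 rises and 387 falls were at least 2, and 104 rises and 49 falls were at least 4. The 3 lines moved together at 95.1% of the called genes, 30.4% of the genes not called and 65.8% of all tested genes. The paired test favours genes on which the lines agree, so the first share follows in part from the call. A1005 had the smallest response, with a median absolute change of 0.95 over the genes called in both fits, compared to 1.36 in A1129 and 1.37 in A1471. Genes the study displayed in its own marker heat map were left out of the rankings that follow, and 7537 called genes lay outside it. Most genes named below were picked for large changes or small p-values, which makes treatment groups without overlap likely. The share of all tested genes without overlap was not counted.

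**Figure D1:**
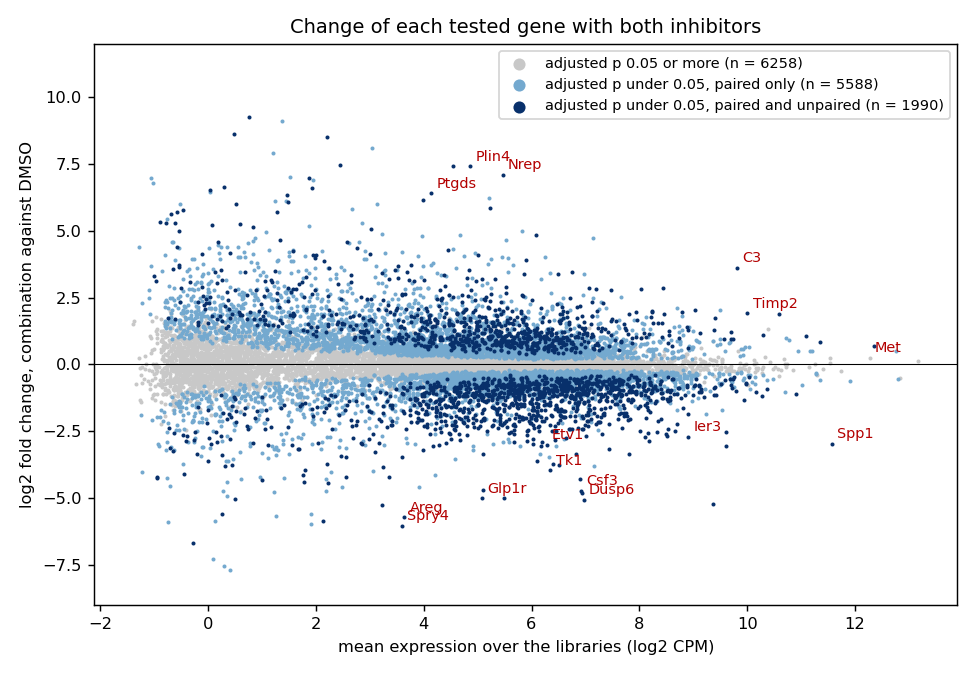
Each point is 1 of the 13836 tested genes, with its mean log2 CPM over the libraries on the x axis and its log2 fold change in Combo against DMSO on the y axis. The 1990 genes called with and without pairing (dark blue) lie on both sides of 0. Among the labelled genes Spry4 lies lowest and Plin4 and Nrep highest, while Met lies near 0.

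A total of 23 gene groups were drawn up from textbook knowledge, with earlier results of these data known, and they hold 669 tested genes, of which 490 were called. The other 7088 called genes belong to no group. No test was made of a group as a whole. Each is described by its counts and its median, beside the median of 0.03 over all tested genes.

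**Figure D2:**
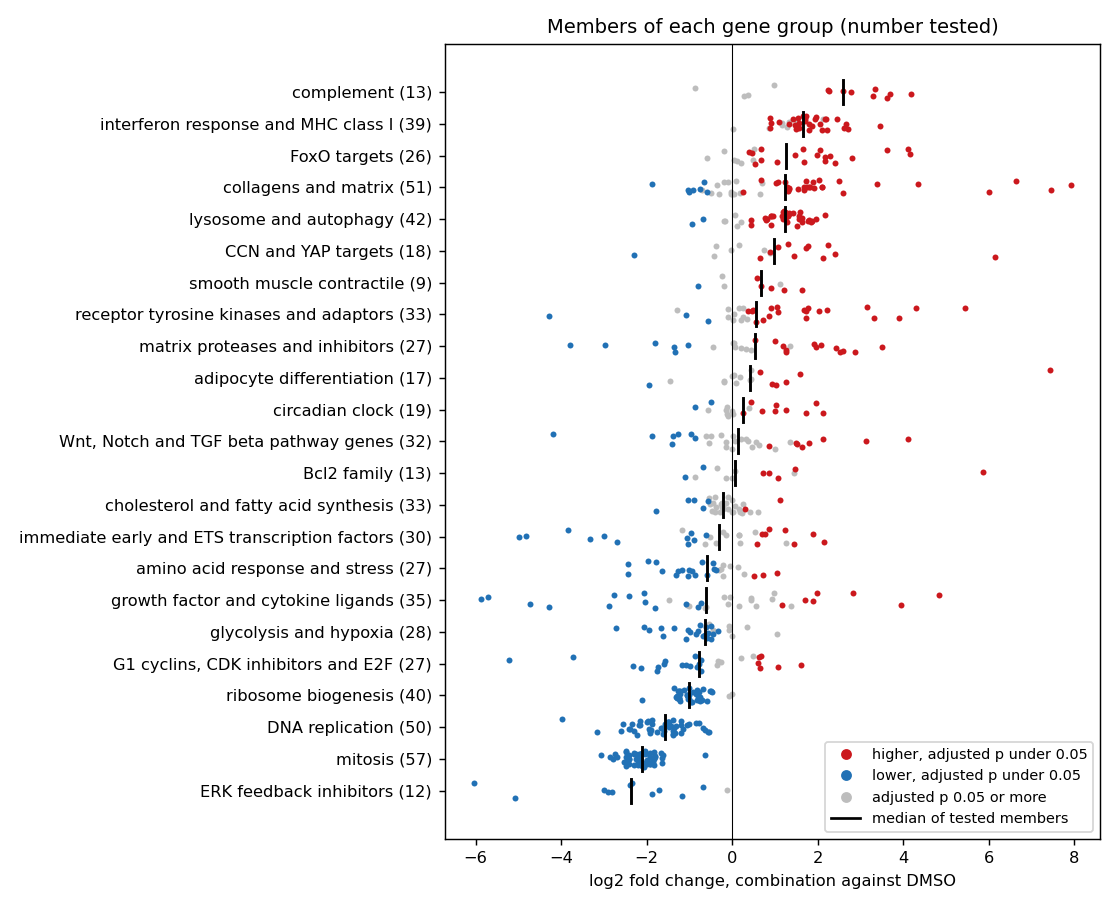
Each point is a tested member of the named gene group (number tested in brackets), with its log2 fold change in Combo against DMSO on the x axis, red where higher and blue where lower at an edgeR adjusted p under 0.05, grey otherwise, and the black bar the group median. Medians run from -2.37 for the ERK feedback inhibitors and -2.12 for mitosis to 1.65 for the interferon and MHC class I genes and 2.60 for complement.

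The feedback inhibitors of ERK signalling showed the lowest median of all groups (-2.37). Of 12 tested members 11 fell and none rose, and 8 of the 11 also passed unpaired. Dusp6, the phosphatase that acts on ERK in the cytoplasm (chromosome 10 from 99263231 to 99267489 of mm10), was read at 225, 204 and 118 CPM with DMSO and 9.51, 4.01 and 3.17 CPM with Combo. Every Combo library was far below every DMSO library (change -5.07 ± 0.22, edgeR adjusted p = 5.20e-07). Spry4, a Sprouty inhibitor of receptor tyrosine kinase signalling, went from 9.91, 24.6 and 18.6 to 0.111, 0.627 and 0.0754 CPM (change -6.03 ± 0.32, edgeR adjusted p = 9.62e-07). Spry2 went from 50.6, 41.6 and 32.3 to 13.95, 6.14 and 5.51 CPM, again without overlap (change -2.34 ± 0.19, edgeR adjusted p = 9.61e-06), with the smallest fall in A1005. The Spred adaptors Spred1, Spred2 and Spred3 and the phosphatases Dusp4, Dusp5, Dusp7 and Dusp9 fell by 0.69 to 3.00 on the log2 scale. Spry3 had a change of -1.18 and none in A1471 (unpaired edgeR adjusted p = 0.844), and Spry1 did not pass (log2 fold change -0.13, edgeR adjusted p = 0.649).

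Immediate early and ETS factors did not move as a block. Of 30 tested, 11 fell and 8 rose (6 and 2 unpaired), with a median of -0.30. Among the ETS factors of the PEA3 type, which ERK induces, Etv1 (chromosome 12 from 38779380 to 38870484) went from 76.5, 144 and 89.02 to 11.4, 20.2 and 7.696 CPM (change -3.002 ± 0.17, edgeR adjusted p = 1.25e-06), and its relatives Etv4 and Etv5, which the study displayed, had changes of -4.82 and -4.996. Egr3, a zinc finger immediate early factor, went from 9.06, 15.9 and 9.39 to 1.67, 0.188 and 0.226 CPM (change -3.85 ± 0.63, edgeR adjusted p = 5.75e-04), a smaller fall in A1005 than in the other lines (-2.35, -5.63 and -4.72 by line). Ier3, an immediate early survival gene, went from 900.4, 652 and 557 to 177, 87.6 and 74.2 CPM (change -2.70 ± 0.19, edgeR adjusted p = 3.97e-06). Subunits of AP-1 were divided. Jund, an AP-1 subunit, rose in every line, from 118, 121 and 122 to 249.98, 747 and 430.2 CPM (change 1.90 ± 0.27, edgeR adjusted p = 2.50e-04). Fosl2, another AP-1 subunit, rose from 87.2, 78.1 and 39.5 to 130.2, 199 and 132 CPM (change 1.23 ± 0.19, edgeR adjusted p = 4.32e-04). Junb rose by 0.77 (edgeR adjusted p = 0.00712, unpaired 0.168). The subunit Fosl1 fell in every line, from a mean of 330.5 to 34.0 CPM (change -3.34 ± 0.29, edgeR adjusted p = 1.54e-05, unpaired 5.44e-04). Jun was also lower (change -0.97 ± 0.28, edgeR adjusted p = 0.0138, unpaired 0.156). Ets1 went from 109, 132 and 166 to 182, 192 and 397 CPM (change 0.85 ± 0.13, edgeR adjusted p = 4.26e-04; unpaired 0.113). The classical immediate early genes Fos and Egr1 did not pass the test (1.25 and -1.17, edgeR adjusted p = 0.109 and 0.115).

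Genes for secreted growth factors and cytokines included some of the largest falls. Of 45 listed, 35 were tested, and 13 fell and 7 rose (4 and 0 unpaired), with a median of -0.62. The EGF receptor ligand Areg, amphiregulin (chromosome 5 from 91139599 to 91148432), was read at 35.3, 13.4 and 11.1 CPM with DMSO and 0.5003, 0.376 and 0.226 CPM with Combo (change -5.72 ± 0.36, edgeR adjusted p = 1.87e-06). Each Combo library was below 1 CPM. The EGF family ligands Hbegf, Btc and Tgfa had changes of -2.05, -2.89 and -1.81 and were lower in each line (unpaired edgeR adjusted p = 0.00613, 0.186 and 0.106). Ereg, another such ligand, was read in A1005 alone, at 57.1 CPM with DMSO and 8.12 CPM with Combo (unpaired edgeR adjusted p = 0.6498), and had 0 counts under both treatments in the other lines. Csf3, the granulocyte colony-stimulating factor, went from 299, 176 and 81.7 to 23.1, 2.44 and 0.679 CPM (change -4.72 ± 0.61, edgeR adjusted p = 1.47e-04), with A1005 keeping the highest level. Vegfa, the main angiogenic factor, was lower in each line but overlapped between groups because A1005 started higher, with 228, 95.7 and 107 and 113, 39.5 and 54.2 CPM (change -1.09 ± 0.09, edgeR adjusted p = 1.29e-05; unpaired 0.263). None of the 7 rises passed unpaired. Cxcl12, the chemokine that binds Cxcr4, was read only in A1129 to any extent (0, 4.01 and 0 and 0.222, 68.7 and 0.0754 CPM; edgeR adjusted p = 5.13e-05, unpaired 0.411), and Angpt1, a ligand of Tie2, mainly in A1005 (138, 0.132 and 0.691 and 426, 1.07 and 6.34 CPM; edgeR adjusted p = 0.00192, unpaired 0.771). Pdgfb stayed at low levels (0.468, 0.132 and 0.0691 and 3.39, 0.376 and 1.36 CPM; edgeR adjusted p = 4.86e-04, unpaired 0.0895).

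Outside these groups, the largest falls shared by all lines included several genes of unrelated function. Glp1r, the receptor for glucagon-like peptide, fell from 62.8, 15.6 and 82.9 to 1.28, 0.689 and 2.87 CPM (change -5.01 ± 0.30, edgeR adjusted p = 1.51e-06). Eya2, a transcriptional cofactor, fell from 12.1, 11.6 and 20.1 to 0.778, 0 and 0.226 CPM (change -5.27 ± 0.77, edgeR adjusted p = 3.09e-04). Upp1, the uridine phosphorylase of pyrimidine salvage, fell from 93.2, 39.3 and 19.3 to 4.67, 1.003 and 0.528 CPM (change -4.69 ± 0.27, edgeR adjusted p = 1.25e-06). In all 3 genes the highest Combo library was below the lowest DMSO library. Fam78b and Sapcd2 fell by 3.29 and 3.05. Spp1, osteopontin, a secreted integrin ligand (chromosome 5 from 104435118 to 104441050), fell from 7836, 2394 and 2705 to 906, 479 and 240.4 CPM (change -2.96 ± 0.20, edgeR adjusted p = 3.29e-06).

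**Figure D3:**
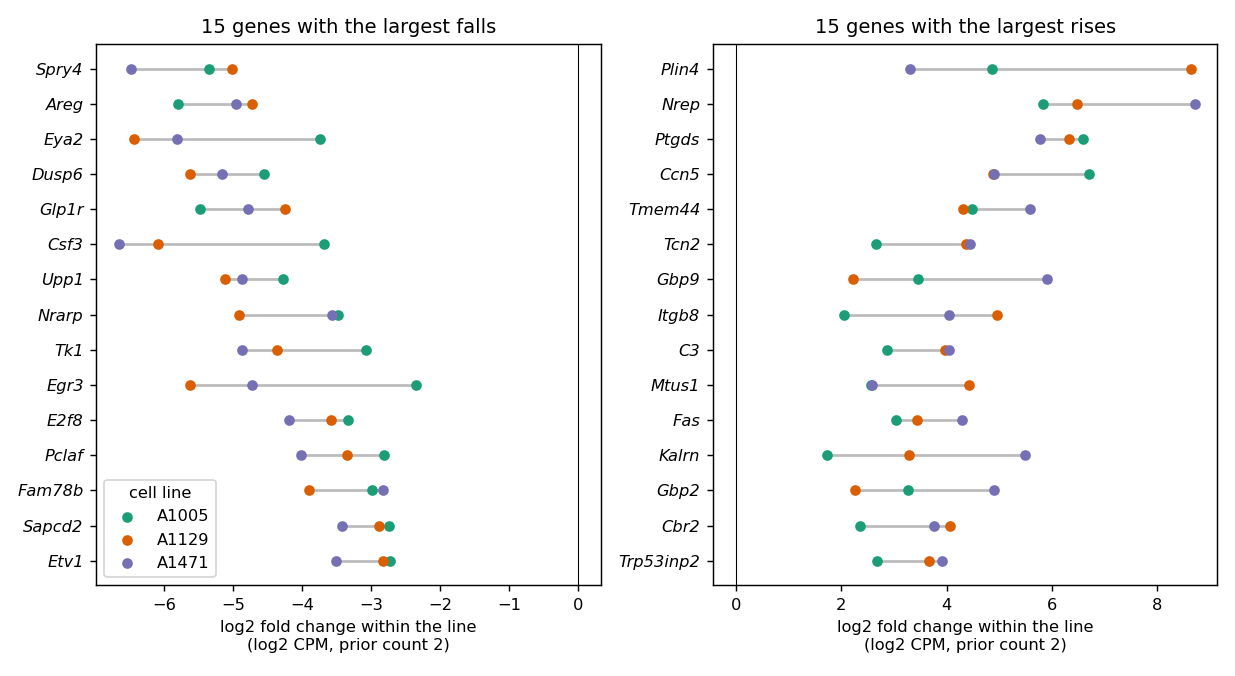
The x axis is the log2 fold change of Combo against DMSO within each cell line (log2 CPM with a prior count of 2), with a coloured point per line and a grey bar over their range, for the 15 largest falls (left) and the 15 largest rises (right) called with and without pairing. Only genes with the same direction in all lines were eligible, so the side of 0 on which the points lie was set by the choice. Plin4 has the widest spread between lines, from 3.31 in A1471 to 8.63 in A1129.

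Genes of DNA replication and mitosis fell almost without exception. All 50 tested replication genes were lower (41 unpaired) with a median of -1.58, and all 57 tested mitotic genes were lower (56 unpaired) with a median of -2.12. The study displayed 2 and 9 of these genes, and the remaining 48 of each group were lower too. Mcm3, a subunit of the replicative helicase (chromosome 1 from 20802968 to 20820312), fell from 254, 246 and 341 to 69.6, 66.9 and 84.95 CPM (change -1.92 ± 0.08, edgeR adjusted p = 5.20e-07). The 3 lines changed by nearly the same amount (-1.87, -1.88 and -2.003). The helicase subunit Mcm5 fell from 144, 221 and 233 to 36.5, 52.5 and 42.9 CPM (change -2.16 ± 0.11, edgeR adjusted p = 8.43e-07), and Gmnn, geminin, which blocks relicensing of origins, from 70.96, 62.2 and 81.4 to 17.3, 16.9 and 19.7 CPM (change -1.99 ± 0.09, edgeR adjusted p = 6.20e-07). Tk1, thymidine kinase, showed a larger fall, from 130.1, 117 and 110.3 to 15.3, 5.58 and 3.62 CPM (change -3.97 ± 0.32, edgeR adjusted p = 9.22e-06), which was least in A1005. Pclaf, a partner of the sliding clamp PCNA, fell from 141, 136 and 195 to 19.96, 13.2 and 11.9 CPM (change -3.36 ± 0.21, edgeR adjusted p = 1.83e-06). For mitosis, Birc5, survivin, a subunit of the chromosomal passenger complex (chromosome 11 from 117849251 to 117855743), fell from 145, 133 and 138 to 22.7, 20.8 and 18.8 CPM (change -2.74 ± 0.09, edgeR adjusted p = 2.74e-07). Its levels were close in all lines under either treatment, and this was among the smallest p-values of all genes.

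Regulators of G1 were divided. Of 27 tested 16 fell and 6 rose (11 and 0 unpaired), with a median of -0.78. E2f8, an atypical E2F that is itself an E2F target, fell from 64.5, 145 and 145 to 6.28, 11.97 and 7.85 CPM (change -3.72 ± 0.17, edgeR adjusted p = 5.44e-07), and Rbl1, the pocket protein p107, from 61.3, 62.7 and 47.3 to 23.9, 17.5 and 15.8 CPM (change -1.59 ± 0.12, edgeR adjusted p = 4.64e-06). Cyclin D1 (Ccnd1), displayed by the study, fell by 5.23. The inhibitors of cyclin-dependent kinases of the Ink4 locus were higher in each line, although the groups did not pass unpaired. Cdkn2b was at 58.004, 30.7 and 69.6 and 122, 74.3 and 127 CPM (change 1.07 ± 0.13, edgeR adjusted p = 1.18e-04; unpaired 0.1296), and Cdkn2a at 297, 509 and 509.97 and 416, 761 and 835 CPM (change 0.59 ± 0.10, edgeR adjusted p = 8.68e-04; unpaired 0.327). Cdkn1b did not pass (0.48, edgeR adjusted p = 0.127), and Cdkn1a did not either (-0.36, edgeR adjusted p = 0.409).

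The promoters of both groups are shown because their members moved together. Sequences are RefSeq windows on GRCm38.p6, the assembly of mm10, from 250 bases before to 50 after a transcription start, printed 5′ to 3′ on the strand of the gene, and 12811 windows matched 10022 of the tested genes. Motifs were searched on both strands as fixed letters and may overlap. For each motif the member with the smallest p that holds it is printed, outside the displayed genes. An E2F motif (TTTCCCGC, TTTGGCGC or TTTCGCGC) was found in 35.4% of 48 windows of 40 replication genes and in 3.45% of all windows. The cell cycle homology region, CHR (TTTGAA), was found in 74.5% of 51 windows of 48 mitotic genes and in 11.9% of all windows, and a CCAAT box (CCAAT) in 72.5% and 38.2%. Among replication genes CHR was found in 12.5% of windows, and among mitotic genes E2F in 7.84%. The CCAAT box was not particular to mitotic genes. It was in 58.3% of replication windows, and among other groups in 76.2% for the circadian clock, 71.4% for cholesterol and fatty acid synthesis and 20.5% for ribosome biogenesis. In the windows of Mcm3 (chr1:20820263-20820562, minus strand) and Cdca8 (chr4:124936868-124937167, minus strand), the latter encoding borealin of the chromosomal passenger complex, capitals mark E2F motifs in the first and the CHR and CCAAT boxes in the second, where the CHR and the last CCAAT box share a base. Cdca8 fell from 88.2, 83.9 and 84.5 to 18.3, 18.05 and 19.4 CPM (change -2.20 ± 0.10, edgeR adjusted p = 5.42e-07).
Mcm3: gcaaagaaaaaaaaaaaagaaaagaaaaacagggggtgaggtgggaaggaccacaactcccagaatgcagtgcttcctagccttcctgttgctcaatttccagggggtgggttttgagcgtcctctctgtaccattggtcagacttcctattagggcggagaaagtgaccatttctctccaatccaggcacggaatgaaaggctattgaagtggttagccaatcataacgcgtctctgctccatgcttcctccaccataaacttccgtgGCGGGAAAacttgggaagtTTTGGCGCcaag
Cdca8: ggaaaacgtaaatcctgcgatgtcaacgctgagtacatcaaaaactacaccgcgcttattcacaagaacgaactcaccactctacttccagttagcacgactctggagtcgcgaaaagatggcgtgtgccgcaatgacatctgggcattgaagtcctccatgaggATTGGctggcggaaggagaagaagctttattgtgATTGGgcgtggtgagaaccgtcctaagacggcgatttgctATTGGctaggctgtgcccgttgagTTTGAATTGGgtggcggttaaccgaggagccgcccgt
These matches describe the letters only, and a match is not evidence of binding. Here and below, groups were listed from textbook knowledge, so a high share of a motif known for their members was likely from the choice. Over all called genes with a change of at least 1.5 in size, an AP-1 motif (TGANTCA) was found in 10.8% of 603 windows of the lower genes and 7.24% of 1022 windows of the higher genes, against 5.41% of all windows. For an ETS motif (CCGGAAGT) these shares were 4.81%, 1.76% and 7.99%.

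Biosynthetic genes were lower as well. Of 40 tested genes of ribosome biogenesis 38 fell and none rose (23 unpaired), with a median of -1.003. Lyar, a nucleolar protein, fell from 131, 190.5 and 211 to 38.4, 40.2 and 41.3 CPM (change -2.12 ± 0.13, edgeR adjusted p = 1.51e-06), and Ncl, nucleolin, from 1657, 2305 and 2951 to 926, 981 and 1189 CPM (change -1.12 ± 0.12, edgeR adjusted p = 6.22e-05). Nolc1, a nucleolar phosphoprotein, was lower in every Combo library than in any DMSO library, at 191, 414 and 410.3 and 93.3, 154 and 152 CPM (change -1.29 ± 0.12, edgeR adjusted p = 2.20e-05; unpaired 0.0697). The transcripts of Eif5a, a translation factor, Hspd1, the mitochondrial chaperonin, Hnrnpa2b1, an RNA-binding protein, Kpnb1, importin beta, and Tubb5, a beta tubulin, fell by 1.18, 1.32, 1.04, 1.01 and 0.93 on the log2 scale, each in all 3 lines.

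Genes of serine and one-carbon metabolism and the amino acid response fell in part. Of 27 tested genes of the amino acid response and stress group, 17 fell and 3 rose (6 and 1 unpaired), with a median of -0.59. Mthfd2 and Shmt2, mitochondrial enzymes that pass on one-carbon units, fell from 119.8, 163 and 189.996 to 21.2, 32.1 and 35.1 CPM (change -2.43 ± 0.14, edgeR adjusted p = 1.51e-06) and from 177, 192 and 283 to 49.3, 48.7 and 66.2 CPM (change -1.97 ± 0.11, edgeR adjusted p = 1.25e-06). Asns, asparagine synthetase (chromosome 6 from 7675169 to 7693254), fell from 285, 157 and 243 to 82.9, 60.2 and 69.7 CPM (change -1.65 ± 0.12, edgeR adjusted p = 3.86e-06). In all 3 genes the treatment groups were apart. Phgdh, the first enzyme of serine synthesis, was instead higher, mostly in A1129, at 358, 365 and 437 and 376, 692 and 601 CPM (change 0.50 ± 0.16, edgeR adjusted p = 0.0244; unpaired 0.184). The endoplasmic reticulum stress genes Herpud1 and Dnajb9 rose by 1.06 and 0.71 (edgeR adjusted p = 0.01198 and 0.002505; unpaired 0.0484 and 0.0525). The letters of an amino acid response element (TGATGNAA, where N is any base) were found in 20.7% of 29 promoter windows of this group and in 2.22% of all windows. The window of Asns (chr6:7693160-7693459, minus strand) is printed with the match in capitals.
Asns: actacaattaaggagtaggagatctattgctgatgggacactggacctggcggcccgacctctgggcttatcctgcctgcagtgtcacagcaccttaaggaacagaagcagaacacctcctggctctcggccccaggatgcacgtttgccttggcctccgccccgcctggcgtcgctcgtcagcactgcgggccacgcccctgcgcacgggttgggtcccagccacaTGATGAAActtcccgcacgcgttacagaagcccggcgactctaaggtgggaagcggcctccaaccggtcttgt

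Glycolytic and hypoxia-responsive genes fell in 21 of 28 tested cases and rose in none, but only 3 passed unpaired (median -0.63). Slc2a1, the glucose transporter Glut1, was at 409, 158 and 236 and 167, 42.6 and 66.3 CPM (change -1.66 ± 0.12, edgeR adjusted p = 4.72e-06; unpaired 0.136), and Ldha, lactate dehydrogenase A, at 2444, 1782 and 1875 and 1464, 717 and 898 CPM (change -1.03 ± 0.12, edgeR adjusted p = 7.09e-05; unpaired 0.0516). Each was lower in every line. In cholesterol and fatty acid synthesis 5 of 33 genes were lower and 2 higher (1 and 1 unpaired), fewer than the background shares, with a median of -0.23. Its line medians had different signs, at -0.34, 0.33 and -0.78. Ebp, a sterol isomerase, rose from 63.5, 39.5 and 53.3 to 121, 98.7 and 113 CPM (change 1.11 ± 0.10, edgeR adjusted p = 1.75e-05), whereas Elovl6, a fatty acid elongase, fell from 250.2, 201 and 353 to 154, 145 and 80.3 CPM (change -1.04 ± 0.26, edgeR adjusted p = 0.00755), mostly in A1471.

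Among the largest rises, Nrep, a small protein first described in regenerating neurons, went from 0.781, 1.84 and 0.345 to 52.1, 175 and 200.3 CPM (change 7.10 ± 0.60, edgeR adjusted p = 1.17e-05). Plin4, a lipid droplet coat protein, was nearly unread with DMSO, at 0.703, 0.592 and 0 CPM, and reached 24.1, 288 and 1.21 CPM with Combo (change 7.43 ± 0.71, edgeR adjusted p = 2.71e-05). Its rise was large in A1129 and reached little over 1 CPM in A1471. Ptgds, prostaglandin D2 synthase (chromosome 2 from 25466709 to 25470046), was likewise near 0 with DMSO (0, 1.84 and 0.138 CPM) and read at 12.9, 159 and 14.8 CPM with Combo (change 6.41 ± 0.50, edgeR adjusted p = 7.75e-06). Tcn2, transcobalamin, which carries vitamin B12, rose from 8.12, 11.3 and 10.6 to 52.1, 236 and 235 CPM (change 3.91 ± 0.42, edgeR adjusted p = 5.28e-05). Fas, the death receptor, rose from 9.13, 7.89 and 2.62 to 76.1, 86.9 and 53.8 CPM (change 3.53 ± 0.35, edgeR adjusted p = 3.03e-05). Both showed no overlap between treatments. Itgb8, an integrin that activates latent TGF beta, rose by 3.68, Cbr2, a carbonyl reductase, by 3.40, Trp53inp2, an autophagy protein, by 3.40, Kalrn, a guanine nucleotide exchange factor, by 3.47, Mtus1 by 3.53 and Tmem44 by 5.07. Kalrn rose least in A1005 (1.73, 3.28 and 5.50 by line).

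Lysosomal genes rose in an even manner. Of 42 tested genes of lysosome and autophagy 35 rose and 2 fell (21 and 0 unpaired), with a median of 1.24, and the 35 rose in each line. Tpp1, a lysosomal peptidase, rose from 84.1, 108 and 64.5 to 211, 364 and 177 CPM (change 1.52 ± 0.12, edgeR adjusted p = 7.31e-06). Ctsa, cathepsin A (chromosome 2 from 164832873 to 164841032), rose from 205, 230.2 and 135 to 501, 752 and 437 CPM (change 1.57 ± 0.13, edgeR adjusted p = 1.13e-05). The groups did not overlap in either gene. Grn, progranulin, which is processed in lysosomes, rose from 522, 329.97 and 338 to 1326, 1213 and 1368 CPM (change 1.75 ± 0.15, edgeR adjusted p = 1.54e-05). The transcripts of Mitf, Tfeb and Tfe3, factors known to drive lysosomal genes, were not called higher. The activity of their proteins was not tested. Mitf was lower (change -0.69 ± 0.16, edgeR adjusted p = 0.00408; unpaired 0.0822), and Tfeb (0.12, edgeR adjusted p = 0.569) and Tfe3 (-0.18, edgeR adjusted p = 0.125) did not pass. The E-box these factors recognise (CACGTG) was found in 19.5% of 41 windows of the group and in 9.82% of all windows. Over all genes called higher by at least 1.5 it was in 8.90% of windows. The window of Ctsa (chr2:164833523-164833822, plus strand), which belongs to a RefSeq start downstream of the annotated gene start, is printed as an example with its E-boxes in capitals.
Ctsa: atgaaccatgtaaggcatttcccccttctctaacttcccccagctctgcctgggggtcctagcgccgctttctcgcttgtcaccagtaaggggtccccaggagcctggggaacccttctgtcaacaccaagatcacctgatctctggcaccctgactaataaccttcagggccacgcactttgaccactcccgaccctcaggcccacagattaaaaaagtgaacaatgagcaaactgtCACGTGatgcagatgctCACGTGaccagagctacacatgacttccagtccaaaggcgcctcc

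Targets of FoxO factors, which Akt restrains, rose in 19 of 26 tested cases and fell in none (8 unpaired), with a median of 1.26. Gadd45b, a stress response gene, rose from 8.74, 8.29 and 7.67 to 55.03, 33.8 and 45.6 CPM (change 2.41 ± 0.21, edgeR adjusted p = 1.57e-05). Sesn3, a sestrin that restrains mTORC1, differed strongly between lines with DMSO and rose in each, at 195, 37.03 and 23.8 and 571, 207 and 109 CPM (change 2.06 ± 0.19, edgeR adjusted p = 2.27e-05; unpaired 0.30999). The insulin receptor substrates also rose. Irs1 went from 8.12, 2.04 and 2.76 to 33.5, 24.6 and 41.1 CPM (change 3.15 ± 0.37, edgeR adjusted p = 9.48e-05), and Irs2 from 10.3, 14.01 and 25.97 to 22.8, 79.6 and 64.7 CPM (change 1.67 ± 0.23, edgeR adjusted p = 2.03e-04; unpaired 0.0548). Both were named after their values were seen. A FoxO motif (GTAAACA) was found in 15.4% of 26 windows of the group and in 2.44% of all windows. The group was listed as known FoxO targets. Over all genes called higher by at least 1.5 the motif was in 2.05% of windows, no more than in all windows. Txnip and Sod2, other members, did not pass (-0.18 and 0.03, edgeR adjusted p = 0.611 and 0.919). Of 13 genes of the Bcl2 family 5 rose and 2 fell (4 and 0 unpaired), against 28.6% and 26.2% of all tested genes, with a median of 0.07. Bcl2l11, which encodes the pro-apoptotic protein Bim, rose from 26.6, 35.4 and 22.998 to 50.6, 110.3 and 80.5 CPM (change 1.47 ± 0.17, edgeR adjusted p = 7.61e-05), in addition to Bmf and Bad, which the study displayed. The anti-apoptotic genes Bcl2 and Bcl2l2 were lower (log2 fold changes -1.11 and -0.70, edgeR adjusted p = 0.0321 and 0.00163; unpaired 0.383 and 0.389), and Bcl2 was at nearly the same level under both treatments in A1005 (-0.04, -1.52 and -2.43 by line).

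Interferon-responsive genes and MHC class I genes rose in 31 of 39 tested cases and fell in none, while 9 passed unpaired (median 1.65). The line medians were 1.38 in A1005, 0.62 in A1129 and 2.80 in A1471, a wider range than in any other group, and 5 of the 31 did not rise in every line. Gbp2, an interferon-inducible GTPase, rose from 30.6, 16.6 and 14.2 to 296, 80.03 and 428 CPM (change 3.44 ± 0.49, edgeR adjusted p = 2.69e-04). Its relative Gbp9 rose by 3.73, and reads of these paralogous genes may be divided between copies with some uncertainty. Irf1, a transcription factor of the pathway, went from 62.9, 34.5 and 70.3 to 207, 81.5 and 233 CPM (change 1.57 ± 0.14, edgeR adjusted p = 2.02e-05; unpaired 0.0553). Ddx58, which encodes the RNA sensor RIG-I (chromosome 4 from 40203773 to 40239828), rose from 33.9, 27.2 and 27.3 to 81.4, 96.3 and 77.7 CPM (change 1.54 ± 0.16, edgeR adjusted p = 4.39e-05). Tapbp, tapasin, which loads peptides onto MHC class I, rose from 239, 81.6 and 139.6 to 735, 308 and 716 CPM (change 1.97 ± 0.20, edgeR adjusted p = 3.56e-05). B2m, the common light chain, was higher in each line but overlapped between groups, at 498, 241 and 234 and 1240.1, 421 and 533 CPM (change 1.10 ± 0.13, edgeR adjusted p = 1.09e-04; unpaired 0.185). The summed immune markers were at 84.6, 27.6 and 24.4 CPM with DMSO and 62.8, 29.97 and 15.6 CPM with Combo. The sum was thus lower in A1005 and A1471 and slightly higher in A1129. Its members differed, as in A1471 Cd14 had 281 counts with DMSO and 90 with Combo, and Cd68 had 75 and 109. In A1005 Cd14 had 699 and 347 counts, Cd68 227 and 439, and Ptprc 174 and 314. The source of the interferon-responsive transcripts was not tested. The group was listed from known interferon-responsive and MHC class I genes. An interferon element (TTCNNTTTC) was found in 52.8% of 36 windows of the group and in 6.99% of all windows. Over all genes called higher by at least 1.5 it was in 10.6% of windows. The window of Ddx58 (chr4:40239776-40240075, minus strand) carries it just after the start, in capitals.
Ddx58: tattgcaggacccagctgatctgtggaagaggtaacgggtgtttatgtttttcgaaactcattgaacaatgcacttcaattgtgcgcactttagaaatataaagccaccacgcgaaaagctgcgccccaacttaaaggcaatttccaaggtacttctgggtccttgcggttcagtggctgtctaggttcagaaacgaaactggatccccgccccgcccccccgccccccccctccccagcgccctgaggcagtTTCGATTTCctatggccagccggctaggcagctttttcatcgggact

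Complement genes had the highest median of all groups (2.60), with 9 of 13 tested genes higher and none lower, although a single gene, C3, passed unpaired and 7 of the 9 rose in every line. C3, the central complement component (chromosome 17 from 57203970 to 57228136), was read at 471, 112 and 91.03 CPM with DMSO and 3428, 1761 and 1511 CPM with Combo (change 3.63 ± 0.31, edgeR adjusted p = 1.24e-05). It was higher in every Combo library than in any DMSO library. C1qtnf1 and C1qtnf6, which share a domain with complement C1q and were counted in this group, rose by 2.26 and 2.25 (unpaired edgeR adjusted p = 0.307 and 0.2296), and their DMSO levels differed between lines (96.9, 11.1 and 36.2 CPM for C1qtnf6). Cp, ceruloplasmin, another acute phase protein, rose from 495, 990.3 and 723 to 1526, 3478 and 3445 CPM (change 1.90 ± 0.24, edgeR adjusted p = 1.28e-04).

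**Figure D4:**
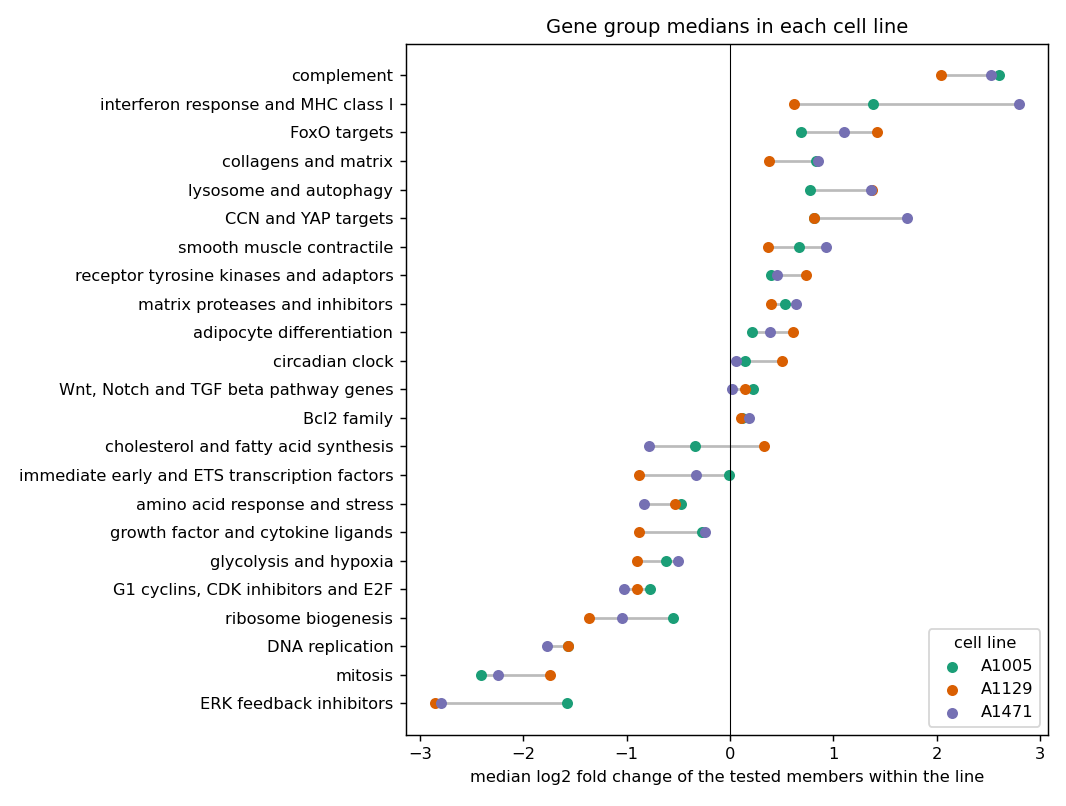
The x axis is the median log2 fold change of the tested members of each gene group within a line, with a coloured point for each of the 3 cell lines and a grey bar over their range. The lines lie close together for DNA replication and far apart for the interferon and MHC class I genes (0.62 to 2.80), and cholesterol and fatty acid synthesis has points on both sides of 0.

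Of 46 listed genes for receptor tyrosine kinases and their adaptors 33 were tested, and 20 rose and 3 fell (3 and 1 unpaired), with a median of 0.55, against rises at 28.6% of all tested genes. Gab1, the docking protein that binds Met, rose from 8.59, 15.1 and 10.5 to 21.01, 58.8 and 40.7 CPM (change 1.76 ± 0.18, edgeR adjusted p = 3.36e-05). Pdgfrb, a PDGF receptor, was higher in each line but from different levels, at 6.25, 0.4604 and 5.25 and 37.1, 4.51 and 98.3 CPM (change 3.32 ± 0.37, edgeR adjusted p = 6.09e-05; unpaired 0.114). Egfr remained at low levels, 4.53, 0.197 and 1.45 CPM with DMSO and 19.1, 0.94003 and 2.57 CPM with Combo (change 1.72 ± 0.39, edgeR adjusted p = 0.003703; unpaired 0.532), as did Erbb3 (2.19, 0.263 and 0.414 and 2.72, 2.82 and 1.66 CPM; edgeR adjusted p = 0.02102, unpaired 0.441). The target family member Fgfr2 was at 0, 0 and 0.0691 CPM with DMSO and 0.0556, 2.01 and 1.89 CPM with Combo, so that it was near absent in A1005 and low in the other lines (edgeR adjusted p = 1.12e-04, unpaired 0.0798). These 3 receptors were named after their values were seen. Among the falls, Tyro3 was lower by nearly the same amount in each line (-0.54, -0.57 and -0.58; edgeR adjusted p = 0.00114, unpaired 0.113), and Ephb2, an ephrin receptor, was lower in A1005 and A1471 but barely read in A1129 (53.9, 1.45 and 53.8 and 19.1, 1.57 and 24.4 CPM; edgeR adjusted p = 0.00174, unpaired 0.638). Epha2, displayed by the study, fell by 4.28.

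Collagens and other matrix genes rose in 29 of 51 tested cases and fell in 7, with a median of 1.24, but 4 rises and no fall passed unpaired, and the lines differed in which matrix genes they expressed. Of the 29 rises 23 were seen in every line, and the line medians were lower than the fitted one, at 0.83, 0.38 and 0.86. Lamb2, a laminin beta chain, rose in all lines without overlap, from 36.3, 63.9 and 28.7 to 167, 397 and 177 CPM (change 2.50 ± 0.18, edgeR adjusted p = 5.08e-06). Its relative Lamb1 went in the opposite direction, from 387, 831 and 1109 to 95.6, 228 and 331 CPM (change -1.87 ± 0.12, edgeR adjusted p = 2.51e-06; unpaired 0.06602). Dcn, the proteoglycan decorin, rose by a similar factor from different levels, at 2.11, 4.999 and 72.5 and 7.17, 20.9 and 205 CPM (change 1.76 ± 0.14, edgeR adjusted p = 9.61e-06; unpaired 0.6498). Ltbp1 and Ltbp3, which anchor latent TGF beta in the matrix, were lower by 0.91 and 0.75 (unpaired edgeR adjusted p = 0.266 and 0.102).

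Matrix proteases and their inhibitors were divided as well, with 13 of 27 higher and 6 lower (4 and 1 unpaired). Mmp14, the membrane-bound metalloprotease MT1-MMP, rose from 108, 81.5 and 166 to 263, 304 and 1003 CPM (change 1.95 ± 0.24, edgeR adjusted p = 1.15e-04). Timp2, an inhibitor of metalloproteases, rose from 571, 449 and 537 to 1214, 1957 and 2914 CPM (change 1.92 ± 0.26, edgeR adjusted p = 1.84e-04), whereas Timp1 was lower, at 146, 116 and 76.1 and 75.1, 34.2 and 30.7 CPM (change -1.33 ± 0.14, edgeR adjusted p = 4.68e-05; unpaired 0.0806). Mmp3, stromelysin, was lower in each line from very different levels, at 533, 44.9 and 2.49 and 40.8, 1.63 and 0.679 CPM (change -3.79 ± 0.42, edgeR adjusted p = 6.17e-05; unpaired 0.341). Mmp15 was higher in A1129 and A1471 and nearly unread in A1005 (0, 1.45 and 0.829 and 0.111, 14.04 and 11.8 CPM).

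Matricellular CCN genes and YAP targets rose in 11 of 18 tested cases and fell in 1 (7 and 0 unpaired; median 0.98). Ccn5 rose from 0.859, 0.723 and 0.138 to 103, 25.005 and 7.997 CPM (change 6.14 ± 0.50, edgeR adjusted p = 9.74e-06), and Nuak2, a kinase, from 3.83, 5.72 and 6.35 to 13.1, 34.7 and 23.8 CPM (change 2.12 ± 0.21, edgeR adjusted p = 3.03e-05). Ccn3 was the exception, at 60.1, 14.7 and 5.87 and 8.62, 2.69 and 2.41 CPM (change -2.29 ± 0.33, edgeR adjusted p = 2.68e-04; unpaired 0.143). Smooth muscle contractile genes rose in 5 of 9 tested cases and fell in 1 (1 and 0 unpaired). Cnn2, a calponin, rose from 108, 108 and 98.1 to 306, 245 and 441 CPM (change 1.63 ± 0.21, edgeR adjusted p = 1.52e-04). Of 17 tested adipocyte genes 6 were higher and 1 was lower (2 and 0 unpaired), against 28.6% and 26.2% of all tested genes. The rises were thus not far from the background. Besides Plin4, the lipase gene Pnpla2 rose from 19.4, 38.4 and 30.04 to 57.4, 129 and 82.4 CPM (change 1.596 ± 0.10, edgeR adjusted p = 2.00e-06). Pparg, the main adipogenic factor, did not pass (-1.47, edgeR adjusted p = 0.142), and Fabp4, a fatty acid carrier of adipocytes, was lower (-1.94, edgeR adjusted p = 1.52e-04, unpaired 0.187).

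Of 32 tested genes of the Wnt, Notch and TGF beta pathways 8 rose and 7 fell (3 and 2 unpaired), close to the background. Tgfb2, a TGF beta ligand, rose from 6.401, 2.302 and 2.69 to 46.5, 16.2 and 35.99 CPM (change 3.12 ± 0.31, edgeR adjusted p = 3.31e-05), and the ligand Wnt4 from 0.781, 0.329 and 0.483 to 6.11, 6.64 and 15.4 CPM (change 4.11 ± 0.43, edgeR adjusted p = 4.77e-05). Notch2, a Notch receptor, rose from 156, 86.9 and 154 to 274, 379 and 435 CPM (change 1.51 ± 0.21, edgeR adjusted p = 2.46e-04), whereas Nrarp, which Notch induces as a feedback inhibitor, fell from 21.9, 22.8 and 4.14 to 1.83, 0.627 and 0.226 CPM (change -4.20 ± 0.41, edgeR adjusted p = 2.83e-05). The Notch ligand Jag2 and the BMP target Id1 were lower by 1.40 and 1.88 (unpaired edgeR adjusted p = 0.3097 and 0.163). In the circadian clock 9 of 19 tested genes rose and 2 fell (2 and 0 unpaired). Bhlhe41, a clock repressor, rose from 16.3, 12.7 and 17.7 to 69.4, 91.9 and 27.9 CPM (change 1.97 ± 0.35, edgeR adjusted p = 9.40e-04), least in A1471.

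Mitochondrially encoded transcripts took a larger share of the reads with Combo. Their 13 genes summed to 10119 to 10874 CPM with DMSO and 15081 to 21456 CPM with Combo, and 6 of 12 tested genes rose while none fell (4 and 0 unpaired). mt-Nd5 rose from 816, 878 and 880.4 to 1584, 2452 and 1545 CPM (change 1.10 ± 0.14, edgeR adjusted p = 1.47e-04), and mt-Cytb from 1969, 2001 and 2040.1 to 3614, 4123 and 3047 CPM (change 0.83 ± 0.11, edgeR adjusted p = 1.81e-04). mt-Co1 rose from 4477, 3694 and 4527 to 6536, 8009.8 and 6039 CPM (change 0.70 ± 0.14, edgeR adjusted p = 0.00225). These genes share reads with nuclear copies, and mt-Co2 had only 22 to 44 counts in the 6 libraries. The part of this shift in the other results was not tested.

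A few genes were read almost only under one treatment, having at most 3 counts in each library of one group and at least 30 in each of the other, given here with DMSO first. The ETS factor Spib went from 0, 1 and 2 counts to 725, 83 and 61. Lctl, a lactase-like protein, had 1, 3 and 1 and 84, 292 and 57, Nckap5 had 3, 1 and 0 and 157, 81 and 145, and Rtn4r, the Nogo receptor, had 3, 3 and 0 and 246, 70 and 71. The mitochondrial malic enzyme Me3 had 2, 2 and 1 and 54, 88 and 63 counts. Gm10638 and Gm16685, predicted genes, had 30 or more counts in every Combo library, and Gm16685 had 0 in each DMSO library. In the other direction only the cytokine gene Il24 met the criterion, with counts of 32, 285 and 30 and of 1, 2 and 2. All 8 were called with and without pairing, but they were picked by these same counts, so the calls are no separate support. No fold is given because a group at so few counts sets no ratio.

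The levels under either inhibitor alone are set beside those of the combination without a test. Dusp6 was at 270.5, 261 and 143 CPM with Crizotinib and 104, 104 and 51.7 CPM with PD173074, against 225, 204 and 118 CPM with DMSO. Mcm3 was at 234, 235 and 316 and 239, 241 and 281 CPM, near its DMSO levels of 254, 246 and 341 CPM, and Birc5 at 124, 119 and 129 and 123, 113 and 109.9 CPM. In these 3 genes each line had its lowest value with Combo. C3 was at 377, 126 and 79.4 CPM with Crizotinib and 1620.3, 422 and 734 CPM with PD173074, and Nrep at 0.8198, 2.11 and 0.791 and 8.098, 22.4 and 63.6 CPM, so that PD173074 libraries lay between those of DMSO and Combo in each line. Tpp1 was at 82.3, 117 and 71.5 and 119, 139 and 103 CPM, and Jund at 109, 96.01 and 108 and 158, 222 and 206 CPM. The comparisons with DMSO share the same control libraries.

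**Figure D5:**
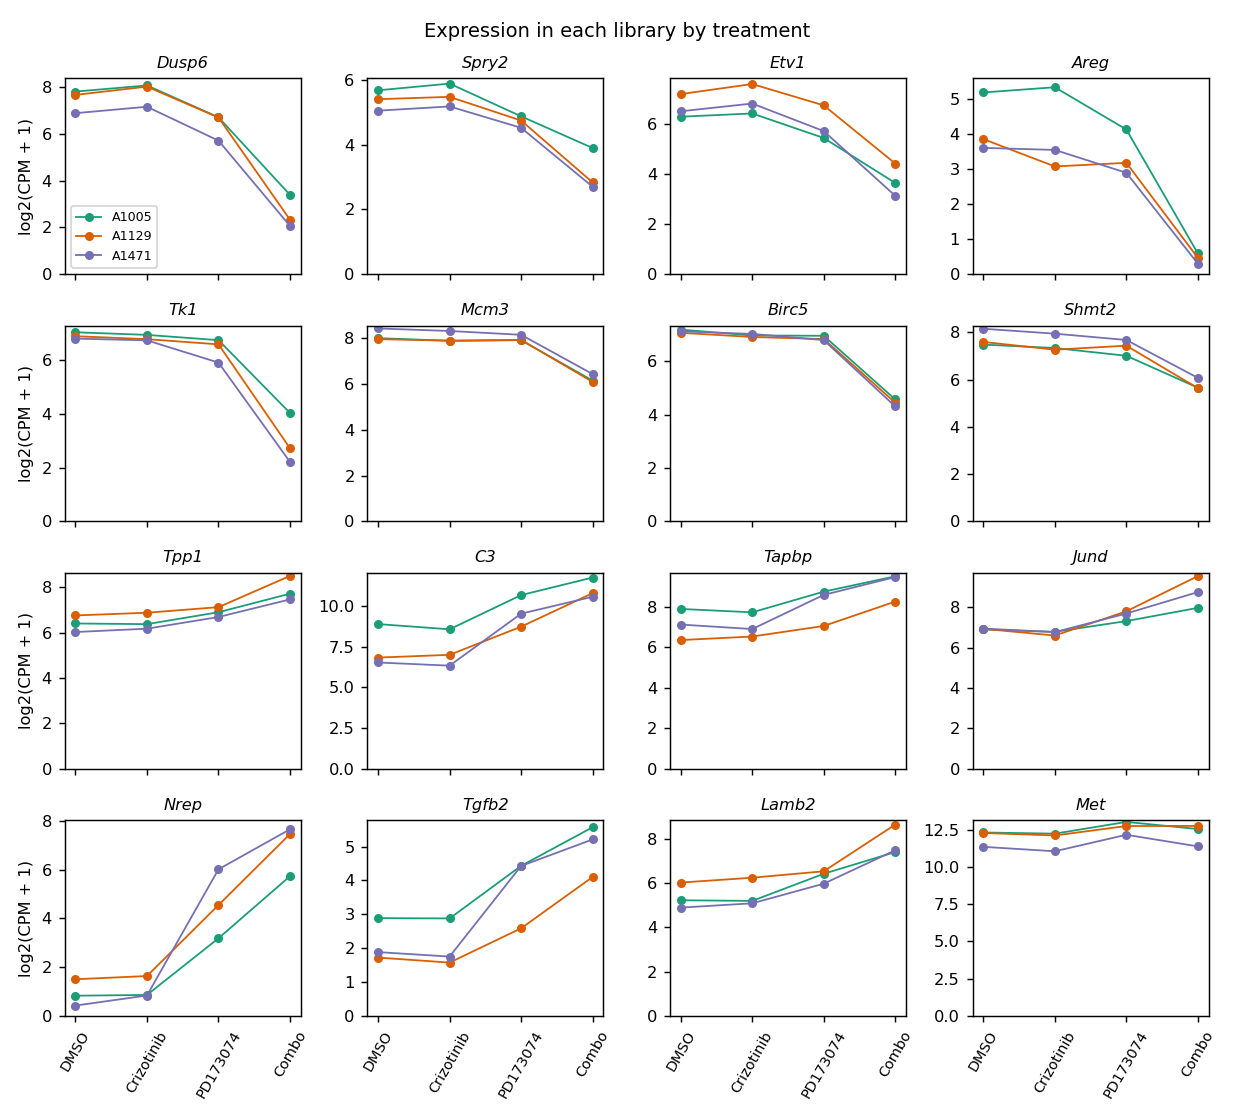
Each panel shows 1 gene, with the 4 treatments on the x axis and log2(CPM + 1) from 0 on the y axis, and each coloured line joins the 4 libraries of a cell line. For Dusp6, Etv1, Tk1, Mcm3, Birc5 and Shmt2 the Combo library is the lowest of each line, for C3, Jund, Nrep, Tpp1, Tgfb2 and Lamb2 the highest, and Met shows neither.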

How the data were processed

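The authors deposited unnormalized read counts for each Ensembl gene in 12 libraries, sequenced on a NextSeq500 instrument. The submitters' processing notes name bcl2fastq, STAR, HTSeq and mm10. Versions, annotation release and strand setting are not given in the sources used here, so overlapping, antisense and paralogous genes are uncertain. Reads carried no stated molecular identifiers.

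Genes were kept by filterByExpr (at least 10 counts, 15 in total), TMM factors were applied, and edgeR 4.0.16 in R 4.3.3 tested 13836 genes by quasi-likelihood in 1 fit over the 12 libraries. P-values were adjusted by the Benjamini-Hochberg method, at a threshold of 0.05. The cell line was the replicate block, since libraries of the same line are paired (correlations of their deviations from the treatment means were 0.862, 0.803 and 0.776, against -0.607 to -0.0550 between lines). Subtracting a mean over 3 lines by itself pushes the values between lines below 0, so their sign is no support for the pairing. Without the block, as the study's unpaired methods state, 844 genes were higher and 1146 lower. None of 66 library pairs held identical counts. DESeq2 1.42.0 and limma 3.58.1 (voom) served as alternatives, and the tests were checked on simulated data. Python 3.11.15, pandas 2.3.3, numpy 2.4.6 and matplotlib 3.10.9 made tables and plots. Coordinates are from GENCODE M21 (13828 tested genes matched), promoters from RefSeq.

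The gene groups and rules were chosen with earlier results of these data known. Named genes were the 15 largest changes per direction called with and without the block, in the same direction in all lines, with a mean log2 CPM of at least 3 and outside the study's marker heat map, the 8 largest differences in CPM per direction, the 3 smallest p-values per direction in each group, genes read in 1 treatment only, the 5 widest opposite changes, and reference genes. Other members were named for their role, with values known. A gene that these rules name is not reported here.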

Additional observations from a re-analysis of the deposited data

Results flagged for a closer look

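A group of 24 genes with a mean log2 CPM of at least 3 changed by at least 1 on the log2 scale in opposite directions in 2 lines, and 3 of them were called in the paired fit. The 5 with the widest range are given here, in the order A1005, A1129, A1471. Because each line had 1 library per treatment, the differences between lines were not tested.

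Bmp2, a bone morphogenetic protein, was at 2.34, 26.8 and 7.46 CPM with DMSO and 23.8, 2.76 and 9.81 CPM with Combo, with line changes of 3.27, -3.22 and 0.39 and a range of 6.49. It was higher with Combo in A1005 and lower in A1129. Itga8, an integrin subunit, was at 40.05, 137 and 74.6 and 5.11, 107 and 260.4 CPM, with line changes of -2.94, -0.36 and 1.80 and a range of 4.74. Flt1, a VEGF receptor, was at 18.3, 56.6 and 56.9 and 46.4, 6.83 and 6.87 CPM, with line changes of 1.34, -3.03 and -3.03 and a range of 4.37. It was higher with Combo in A1005 alone of the 3 lines. Slit2, a guidance ligand, was at 48.9, 8.88 and 2.003 and 24.1, 44.4 and 20.4 CPM, with line changes of -1.01, 2.31 and 3.26 and a range of 4.28. Gcnt1, a glycosyltransferase, was at 19.4, 5.13 and 25.6 and 8.45, 39.4 and 40.3 CPM, with line changes of -1.19, 2.91 and 0.65 and a range of 4.10. Slit2 passed the paired test narrowly (edgeR adjusted p = 0.0491, unpaired 0.825), and the other 4 did not pass.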

How the results depend on the processing

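The counts of 3953 higher and 3625 lower genes rest on the pairing. Without the replicate block 844 and 1146 genes were called, and with only the 6 compared libraries, which leaves fewer samples for the error estimate, 2511 and 2358. A minimum log2 fold change of 1.5 left 1083 and 701. DESeq2's size factors, total counts, keeping all genes, requiring 10 counts in each of the libraries, DESeq2's test and limma-voom gave 3395 to 4281 higher and 3081 to 3721 lower genes, and no gene called in both fits changed direction under any setting. Leaving out 1 line gave 2712 to 3503 higher and 2441 to 3320 lower genes, the lowest without A1471. Of 147 named genes called, 135 kept the call under every alternative with the block, and 50 lost it without the block, where the paired libraries of a line are treated as unrelated; the cause was not tested. With 3 lines and 1 library each, changes specific to a line could not be tested, and genes near the filter have few counts.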
